A study of Mus musculus with 2 samples.

Results

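The *Ugt1a* locus of the mouse encodes a family of UDP-glucuronosyltransferases, and its 8 named genes *Ugt1a1*, *Ugt1a2*, *Ugt1a5*, *Ugt1a6a*, *Ugt1a6b*, *Ugt1a7c*, *Ugt1a9* and *Ugt1a10* were followed here, chosen by gene symbol among the 34745 genes that the authors listed. All 8 were listed, and all 8 had at least 10 counts over both libraries, a minimum that 13561 genes met, referred to as the genes tested. The libraries were made from poly(A) RNA of male livers. The donors were miRNA-182 KO mice, which carry the knockout on 1 of their alleles only, or WT mice. Mice of both genotypes were 8 to 10 weeks old and had undergone 2/3 partial hepatectomy (PH), and their liver was taken at day 3 after it, a time that the labels do not state. Each genotype was represented by 1 library, and the sources used here do not state how many mice went into it, so no difference between KO and WT has a replicate check and no p-value is given.

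UDP-glucuronosyltransferases sit in the membrane of the endoplasmic reticulum and join glucuronic acid to bilirubin, hormones, phenols and drugs, which makes these compounds soluble enough for excretion in bile or urine. The *Ugt1a* genes are built in an unusual way. Each has its own promoter and its own first exon, which encodes the part of the enzyme that binds the substrate, and every first exon is spliced to the same set of downstream exons, which encode the part that binds UDP-glucuronic acid. The first exons fall into a bilirubin type, here *Ugt1a1*, *Ugt1a2* and *Ugt1a5*, and a phenol type, here *Ugt1a6a*, *Ugt1a6b*, *Ugt1a7c*, *Ugt1a9* and *Ugt1a10*. In liver the locus is known for UGT1A1, the enzyme that conjugates bilirubin, and for its induction through the receptors AhR, CAR, PXR and PPARα and the factor NRF2.

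The members lie on the plus strand of chromosome 1 of GRCm38, between 88055388 and 88220002 in the coordinates of the authors' table, which for each member are those of GENCODE release M21. In that annotation, exons 2, 3 and 4 are shared by every member at 88215044 to 88215175, 88215795 to 88215882 and 88216138 to 88216357. The last exon begins at 88218127 in every member and ends at 88218997 in most. The first exon of *Ugt1a10* starts 160 kb before exon 2 and that of *Ugt1a1* only 3.09 kb before it. The last 45 bases of each member's own coding exon and the first 15 bases of exon 2, in capitals, are shown in order along the chromosome because a read across this junction also covers bases of the member's own exon, while a read within the shared exons is the same for every member.
*Ugt1a10*: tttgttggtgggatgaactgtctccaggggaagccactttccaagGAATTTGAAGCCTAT
*Ugt1a9*: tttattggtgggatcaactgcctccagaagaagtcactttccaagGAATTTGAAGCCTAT
*Ugt1a7c*: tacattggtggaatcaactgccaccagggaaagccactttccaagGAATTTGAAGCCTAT
*Ugt1a6b*: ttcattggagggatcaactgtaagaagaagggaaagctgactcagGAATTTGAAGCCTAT
*Ugt1a6a*: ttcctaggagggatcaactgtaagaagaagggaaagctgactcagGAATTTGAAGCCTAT
*Ugt1a5*: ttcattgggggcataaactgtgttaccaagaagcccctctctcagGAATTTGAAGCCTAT
*Ugt1a2*: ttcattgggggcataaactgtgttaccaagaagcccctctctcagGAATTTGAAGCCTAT
*Ugt1a1*: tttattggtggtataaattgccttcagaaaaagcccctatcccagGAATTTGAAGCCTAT
The own part of *Ugt1a5* ended in the same 45 bases as that of *Ugt1a2*. Between 57.9% (*Ugt1a6a*) and 71.7% (*Ugt1a7c*) of each member's transcript consisted of exons 2 to 5, for which *Ugt1a7c* has a longer last exon than the others. How reads on these shared exons were divided among the genes is not given in the sources used here. The own exons of *Ugt1a6a* and *Ugt1a6b* were 97.0% identical over their coding bases, and 46.9% and 47.7% of their 51-base words occurred in another member. *Ugt1a9* and *Ugt1a10* were 91.2% identical, and *Ugt1a5* and *Ugt1a2* were 81.6% identical, with at most 7.84% of words found in another member. *Ugt1a1* shared no 51-base word of its own exon with any member, and its closest relative, *Ugt1a5*, was 58.8% identical.

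Counts totalled 13247497 in KO and 13163348 in WT. The 13 protein-coding mitochondrial genes held 51.7% of counts in KO against 31.0% in WT. Libraries were scaled by TMM (trimmed mean of M values), which sets the bulk of genes to no change and gave a median log2 fold change, KO over WT, of 0.00 over all genes tested. Scaling by total counts moved this median to −0.60, and every member moved by about the same step. With total counts without the mitochondrial genes, *Ugt1a1* was at 1.42 and the sum of all members at −0.47. With TMM they were at 1.51 and −0.38, and with total counts at 0.91 and −0.98. Beyond this change of scaling, the part of the mitochondrial difference in the results below was not tested. Intervals are exact 95% binomial intervals and cover counting error only. The level of miR-182-5p, the target of the knockout, was not analysed here, and no value below checks the genotype of a library.

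With TMM, 1 member, *Ugt1a1*, was past a 2-fold change upward in the KO library, where 9.46% of all genes tested were. Another 5 members, *Ugt1a6b*, *Ugt1a5*, *Ugt1a2*, *Ugt1a6a* and *Ugt1a10*, were past a 2-fold change downward, where 9.94% of all genes tested were. *Ugt1a9* and *Ugt1a7c* were within a 2-fold change. The median log2 fold change of the 8 members, taken with *Ugt1a10* and *Ugt1a2* at their bounds, was −1.97. The members share exons and are therefore not independent of each other, and *Ugt1a6b*, *Ugt1a5*, *Ugt1a2* and *Ugt1a10* reached the minimum of 10 counts through the WT library alone. In whole liver, fewer cells that express a gene and less of its RNA per cell cannot be told apart. Scaled by total counts, the same 5 members were past a 2-fold decrease, as were 26.6% of all genes tested, and no member was past a 2-fold increase, against 4.60% of all genes tested.

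With TMM, the locus as a whole differed less between the libraries than *Ugt1a1* and the 5 members past a 2-fold decrease did, while with total counts it differed by slightly more than *Ugt1a1*. The 8 members summed to 2407 counts in KO and 4732 in WT. With TMM this was 224 and 292 CPM (counts relative to the TMM-scaled library total), a log2 fold change of −0.38 (95% counting interval −0.45 to −0.31). With total counts it was −0.98 (−1.06 to −0.91), and relative to the median of all genes it was −0.38 in both scalings. The sum rested on single members, since it was 0.064 without *Ugt1a6b* and −2.04 without *Ugt1a1*. Over all 8 members it was lower in the KO library by less than 2-fold, while the single members spread over both directions.

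**Figure D1:**
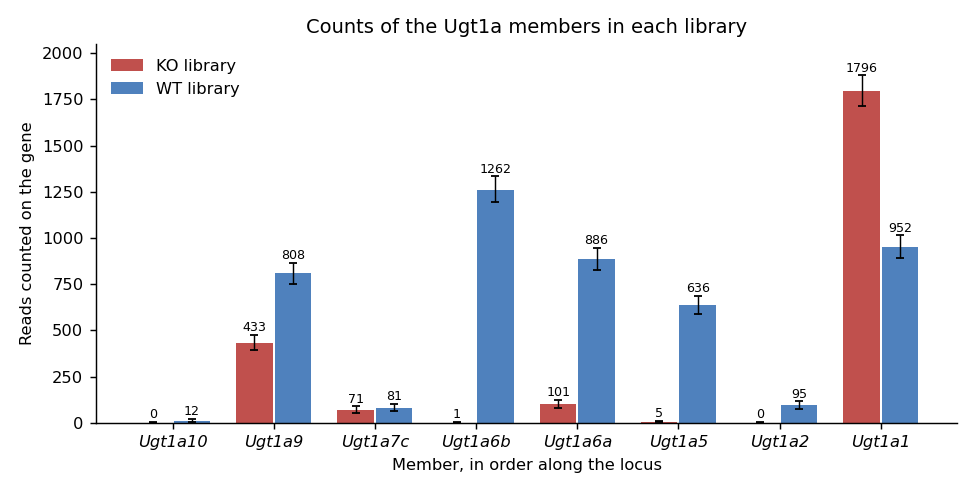
Reads counted on each *Ugt1a* member (y axis, raw counts) in the KO library (red) and the WT library (blue), in order along the locus (x axis), with exact 95% Poisson intervals as error bars. *Ugt1a1* had 1796 counts in KO and 952 in WT, while *Ugt1a6b*, *Ugt1a5* and *Ugt1a2* were at 1, 5 and 0 counts in KO.

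Among the members of bilirubin type, *Ugt1a1* (ENSMUSG00000089960, 88211959 to 88218997) had 1796 counts in KO and 952 in WT. Its level was 2.84-fold higher in the KO library with TMM (2.63 to 3.08), a log2 fold change of 1.51 (1.39 to 1.62), and 95.1% of all genes tested had a lower one. *Ugt1a1* was the only member whose raw count was higher in the KO library. With total counts its log2 fold change was 0.91 (0.79 to 1.02), just within a 2-fold change.

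*Ugt1a5* (ENSMUSG00000089943, 88166012 to 88218997) had 5 counts in KO and 636 in WT. Its log2 fold change, computed with a prior count of 0.5 that draws low counts toward no change, was −6.29 (−8.03 to −5.17), and the ratio of WT to KO without a prior count was 84.4. *Ugt1a2* (ENSMUSG00000090171, 88200601 to 88218997) had 0 counts in KO and 95 in WT. Taken against a floor of 3 counts in the KO library, it was at least 21.0-fold lower there with TMM. The limit of its exact interval was 16.8-fold lower. The 3 genes of bilirubin type together had 1801 counts in KO and 1683 in WT, a log2 fold change of 0.69 (0.59 to 0.79) with TMM and 0.09 (−0.01 to 0.19) with total counts. These genes have the shared exons in common, and a shift between their promoters and a different division of the shared reads cannot be told apart from gene counts.

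Among the members of phenol type, *Ugt1a6b* and *Ugt1a6a*, both encoding enzymes that conjugate small planar phenols, were past a 2-fold decrease. *Ugt1a6b* (ENSMUSG00000090145, 88103252 to 88219003) had 1 count in KO and 1262 in WT, where it had more counts than any other member. The ratio of WT to KO, without a prior count, was 837 with TMM, and its counting interval of 150 to 33087 is wide because it rests on 1 KO read. *Ugt1a6a* (ENSMUSG00000054545, 88134809 to 88218997) had 101 counts in KO and 886 in WT, a log2 fold change of −2.54 (−2.85 to −2.24). Because their own exons are nearly identical, the pair was also summed, to 102 counts in KO and 2148 in WT. The sum was lower in the KO library, with a log2 fold change of −3.80 (−4.11 to −3.52), so the pair was also lower where an exchange of reads within it could not matter. The sum does not remove a different division of shared reads between this pair and the other members.

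*Ugt1a9* (ENSMUSG00000090175, 88070800 to 88218997), whose human counterpart conjugates bulky phenols, had 433 counts in KO and 808 in WT. Its log2 fold change was −0.31 (−0.48 to −0.14) with TMM and −0.91 (−1.08 to −0.74) with total counts. *Ugt1a7c* (ENSMUSG00000090124, 88095062 to 88220002) had 71 and 81 counts. Its log2 fold change was 0.40 (−0.08 to 0.88) with TMM and −0.20 (−0.68 to 0.28) with total counts, so that its direction depended on the scaling and a difference was not detectable at this depth. *Ugt1a10* (ENSMUSG00000090165, 88055388 to 88219004) had 0 counts in KO and 12 in WT, at least 2.65-fold lower against the floor of 3 counts. The limit of its exact interval with TMM was only 1.84-fold lower, so a change of less than 2-fold was not excluded. The 5 genes of phenol type together had 606 counts in KO and 3049 in WT, 3.34-fold lower in KO with a log2 fold change of −1.74 (−1.87 to −1.61) with TMM and −2.34 (−2.47 to −2.21) with total counts. The sums of both types were thus on opposite sides of the median change of all genes, at 0.69 and −1.74 relative to it. This contrast did not hold member by member. *Ugt1a1* held 1796 of the 1801 KO counts of bilirubin type, while *Ugt1a5* and *Ugt1a2* were past a 2-fold decrease. Of the phenol type, *Ugt1a9* and *Ugt1a7c* were within a 2-fold change.

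**Figure D2:**
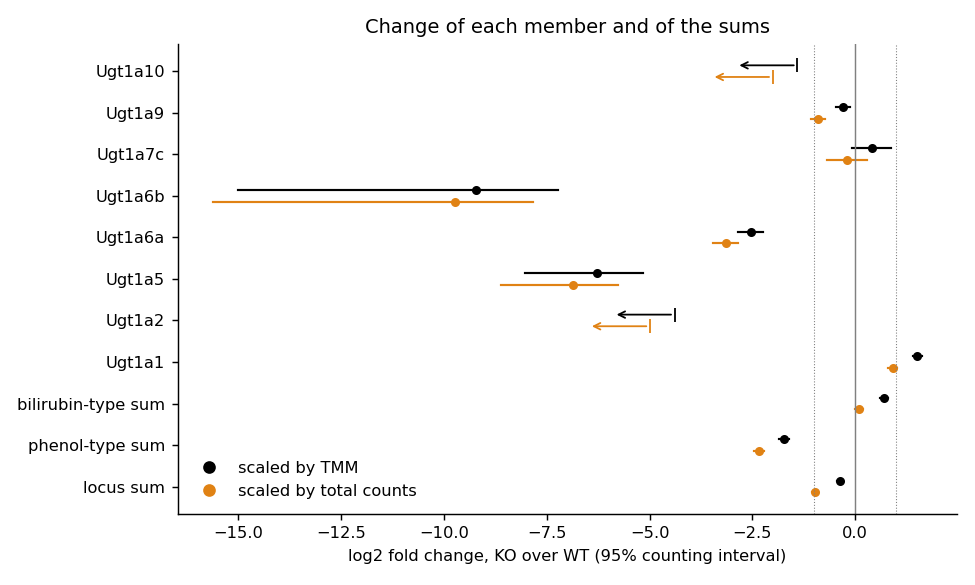
Log2 fold change, KO over WT (x axis), of each member and of the sums (y axis), scaled by TMM (black) or total counts (orange). Points carry exact 95% counting intervals, arrows start at the bound against 3 counts for members without a KO read, and dotted lines mark a 2-fold change. *Ugt1a1* lies at 1.51 and the locus sum at −0.38 with TMM, and total counts move every value to the left.

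The share of each member in the locus sum does not depend on how the libraries are scaled against each other. It does depend on how reads on the shared exons were divided among the members, which the intervals do not cover. *Ugt1a1* made up 74.6% of the locus sum in the KO library (exact Clopper-Pearson interval 72.8% to 76.3%) and 20.1% in the WT library (19.0% to 21.3%). *Ugt1a6b* made up 26.7% in the WT library (25.4% to 28.0%) and 0.0415% in the KO library. *Ugt1a6a* made up 18.7% of the WT and 4.20% of the KO counts, and *Ugt1a5* 13.4% and 0.208%. The share of *Ugt1a9* was nearly the same in both libraries, 18.0% in KO (16.5% to 19.6%) and 17.1% in WT (16.0% to 18.2%), with overlapping intervals. *Ugt1a7c* took 2.95% of the KO and 1.71% of the WT counts. *Ugt1a2* took 2.01% of the WT counts and *Ugt1a10* took 0.254%. For 0 of 2407 counts in the KO library, the exact interval allows a share of up to 0.153% for each. By counts the WT locus was thus divided among 5 genes with over 13% each, and the KO locus was mostly *Ugt1a1* and *Ugt1a9*. By the authors' FPKM, which divide by length, *Ugt1a6a* took only 9.35% of the WT locus and *Ugt1a9* took 19.0% of the KO and 23.0% of the WT locus.

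**Figure D3:**
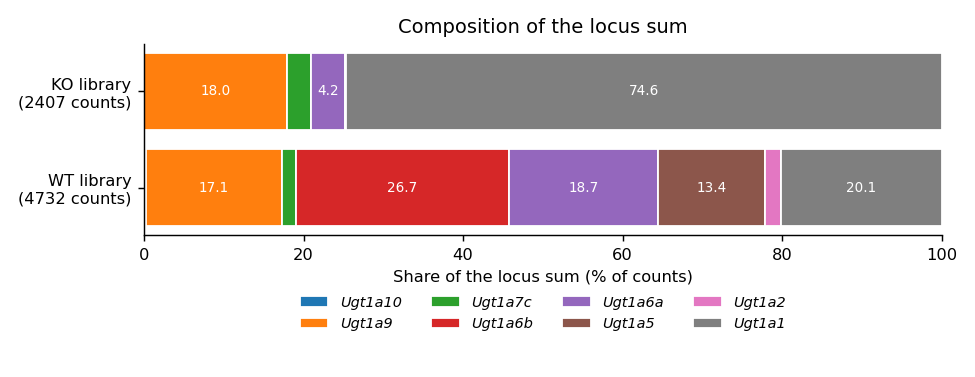
Composition of the locus sum (x axis, % of the counts on the 8 members) in the KO and WT libraries (y axis), with 1 colour per member. *Ugt1a1* (grey) takes 74.6% of the KO bar and 20.1% of the WT bar, and *Ugt1a6b* (red) is visible in the WT bar alone.

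Levels within a library were compared as counts per kilobase of the member's transcript with the longest coding sequence. In the WT library *Ugt1a6b* was highest with 561 counts per kb (531 to 593), followed by *Ugt1a1* with 428 (401 to 456), *Ugt1a6a* with 391 (366 to 418) and *Ugt1a9* with 369 (344 to 395). *Ugt1a1* and *Ugt1a6a*, and *Ugt1a6a* and *Ugt1a9*, overlapped in their counting intervals. *Ugt1a5* followed with 289 counts per kb (267 to 312), and *Ugt1a2* with 43.0, *Ugt1a7c* with 25.1 and *Ugt1a10* with 5.35 were far below. In the KO library *Ugt1a1* stood at 808 counts per kb (771 to 846) and *Ugt1a9* at 198 (180 to 217). *Ugt1a6a* with 44.6 (36.3 to 54.2) and *Ugt1a7c* with 22.0 (17.2 to 27.7) came next. *Ugt1a5* with 2.27 (0.74 to 5.30) and *Ugt1a6b* with 0.44 (0.011 to 2.48) overlapped, and *Ugt1a2* and *Ugt1a10* had no count. In the authors' FPKM the WT order differed, with *Ugt1a1* at 32.5, *Ugt1a9* at 28.0, *Ugt1a6b* at 23.3, *Ugt1a5* at 21.9 and *Ugt1a6a* at 11.4. The FPKM imply a length of 4112 bases for *Ugt1a6b* and 5902 bases for *Ugt1a6a*, against 2249 and 2265 bases for the transcripts used here. For *Ugt1a7c* the implied length was 4950 against 3231 bases, and for *Ugt1a10* it was 2932 against 2244 bases. For *Ugt1a1*, *Ugt1a2*, *Ugt1a5* and *Ugt1a9* the implied length was that of the transcript.

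**Figure D4:**
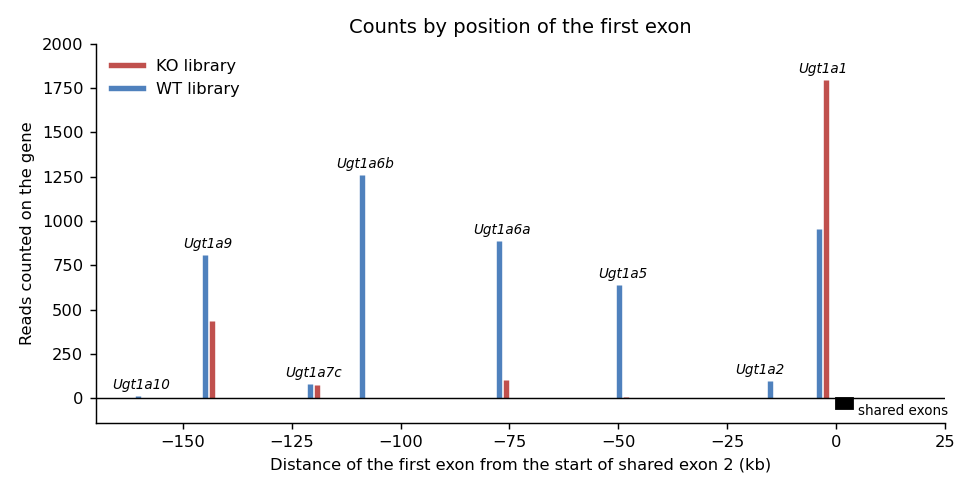
Reads counted on each member (y axis) in the KO (red) and WT (blue) libraries, placed by the distance of its first exon from the start of shared exon 2 (x axis, kb; the bars of a pair are drawn side by side). *Ugt1a1*, the member nearest to the shared exons, is higher in KO, the members between 14.4 and 108 kb away are lower, and beyond them *Ugt1a7c* and *Ugt1a9* are within a 2-fold change with TMM and *Ugt1a10* has 0 and 12 counts.

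Position along the locus and direction of change were read together. In the transcripts used here, the first exons of *Ugt1a2*, *Ugt1a5*, *Ugt1a6a* and *Ugt1a6b* start 14.4, 49.0, 76.7 and 108 kb before exon 2. These 4 neighbouring members were past a 2-fold decrease. The listed genes *Ugt1a6a* and *Ugt1a6b* start farther out, at 88134809 and 88103252, against 88138378 and 88106862 for these exons. *Ugt1a7c* at 120 kb and *Ugt1a9* at 144 kb, farther out, were within a 2-fold change, and the farthest member, *Ugt1a10* at 160 kb, was again past a 2-fold decrease, with 0 and 12 counts. Of 11 other genes listed within the locus, 10 had no count in either library, among them *Ugt1a8* and *Dnajb3*, and *Gm20528*, which overlaps the locus, had 10 counts in KO and 16 in WT. Of 16 genes listed within 300 kb on either side, 6 could be tested, and none was past a 2-fold change. Of all genes tested, 9.46% were past a 2-fold increase and 9.94% past a 2-fold decrease with TMM, and 4.60% and 26.6% with total counts. The 6 genes lay between −0.03 and 0.46 on the log2 scale with TMM and between −0.62 and −0.14 with total counts. For *Mroh2a*, with 11 and 17 counts, the interval of −1.28 to 1.14 did not exclude a 2-fold change. *Hjurp*, which loads the centromeric histone, had 1610 and 2460 counts and a log2 fold change of −0.02 (−0.11 to 0.07), and *Spp2*, a secreted liver protein, had 833 and 1150 counts and 0.13 (−0.00 to 0.26).

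Since the members differ in their promoters, the promoter windows of RefSeq (GRCm38.p6, 250 bases before to 50 after the gene's start) were read for the 7 members that have one, all but *Ugt1a6b*. The window of *Ugt1a6a*, 88134559 to 88134858, lies at the listed start of the gene and not at the first exon used above. Motifs were sought on both strands and did not overlap each other, and not every motif searched is reported here. GCGTG, the core bound by AhR, was found in the window of *Ugt1a5* only, against 32.4% of 32851 promoters of the same length, and TGACNNNGC, the core of the antioxidant response element bound by NRF2, in none, against 12.4%. The window of *Ugt1a5*, which was lower in the KO library, is shown with this motif, from base −49 to −45 of its start, in capitals. It lies on the plus strand at chr1:88165762-88166061.
*Ugt1a5*: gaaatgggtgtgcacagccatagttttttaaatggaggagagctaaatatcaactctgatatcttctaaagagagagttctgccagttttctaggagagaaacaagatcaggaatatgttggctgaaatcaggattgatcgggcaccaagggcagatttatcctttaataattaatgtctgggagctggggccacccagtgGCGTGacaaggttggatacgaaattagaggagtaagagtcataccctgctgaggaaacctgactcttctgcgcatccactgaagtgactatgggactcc
This match is a description of the letters and not evidence of binding.

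The knockout targets miR-182-5p, so its seed match was also sought. Its mature sequence is shown with the seed, bases 2 to 8, in capitals, and lies on the minus strand at chr6:30165962-30165986 (RefSeq, GRCm38.p6).
miR-182-5p: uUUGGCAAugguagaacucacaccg
The match to this seed, TTGCCAA, was not found in the annotated 3′ UTR of any of the 8 members, of 573 to 1578 bases, against 12.0% of 12503 tested genes with an annotated 3′ UTR (median 1130 bases). The members end in the same last exon, so this is 1 sequence, longer in *Ugt1a7c*, and not 8 separate ones.

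The rest of the glucuronidation system was described from lists of genes, to be read against all genes tested, of which 9.46% were past a 2-fold increase and 9.94% past a 2-fold decrease with TMM, and 4.60% and 26.6% with total counts. Of the 13 other UDP-glycosyltransferase genes, 10 were tested, and 1 was past a 2-fold increase and none past a 2-fold decrease, with a median log2 fold change of 0.17 with TMM and −0.43 with total counts, where none was past a 2-fold increase. *Ugt2b38* had 117 counts in KO and 70 in WT, 1.33 on the log2 scale (0.89 to 1.78), and *Ugt2b37* had 99 and 77 counts, 0.95. The more abundant *Ugt2b5* (3799 and 4497 counts, 0.35) and *Ugt2b1* (2062 and 2190 counts, 0.51), which encode steroid-conjugating enzymes, were within a 2-fold change. No gene of this list shares exons with the *Ugt1a* locus.

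The 7 genes for making, moving and clearing UDP-glucuronic acid and glucuronides were all within a 2-fold change with TMM, with a median of −0.39. *Ugdh*, the dehydrogenase that makes UDP-glucuronic acid, had 1280 counts in KO and 2887 in WT (−0.58, −0.68 to −0.49), and *Ugp2*, which makes UDP-glucose, had 692 and 1363 (−0.39). With total counts 3 of the 7 were past a 2-fold decrease. Of 7 genes for bilirubin formation and transport, *Abcc3*, an exporter of glucuronides into the blood, was past a 2-fold decrease, with 445 and 1391 counts (−1.05, −1.21 to −0.90). *Abcc2*, which exports conjugated bilirubin into bile, stood at −0.01 and *Blvra*, biliverdin reductase A, at 0.59. The median of these 7 genes was −0.01 with TMM, and with total counts 2 of them were past a 2-fold decrease.

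Of 12 regulators of drug metabolism, 1 was past a 2-fold increase and 1 past a 2-fold decrease. *Nr1h4*, the bile acid receptor FXR, had 1998 counts in KO and 911 in WT (1.72, 1.61 to 1.84). *Arnt*, the dimer partner of AhR, had 26 and 200 counts (−2.33). *Ppara*, the fatty acid receptor PPARα, stood at 0.61, *Ahr* itself at −0.53, CAR (*Nr1i3*) at −0.22, PXR (*Nr1i2*) at −0.20 and NRF2 (*Nfe2l2*) at −0.18, all within a 2-fold change with TMM. With total counts 2 of the 12 were past a 2-fold decrease, *Arnt* and *Ahr* (−1.13), and 1 past a 2-fold increase. Among 6 targets of CAR and PXR, 4 were past a 2-fold decrease, none was past an increase and the median was −1.39, and with total counts 5 were past a 2-fold decrease. Of these, *Cyp3a11*, the main steroid and drug hydroxylase of its family in mouse liver, had 12443 and 51743 counts (−1.46, −1.49 to −1.44). *Cyp2c55* had 28 and 358 counts (−3.07, −3.69 to −2.53), and *Cyp2b10*, the classic CAR target, had 0 and 33 counts, at least 7.30-fold lower against 3 counts. The exact interval of *Cyp2b10* reached up to −2.49 on the log2 scale. Of 8 tested targets of AhR and NRF2, 2 were past a 2-fold decrease, with a median of −0.44, and with total counts 4 were. *Nqo1*, a quinone reductase, had 30 and 156 counts (−1.77, −2.40 to −1.22), whereas *Cyp1a2* had 3037 and 5279 counts (−0.21). *Cyp1a1*, the other, had 6 and 20 counts with an interval of −2.75 to 0.22.

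**Figure D5:**
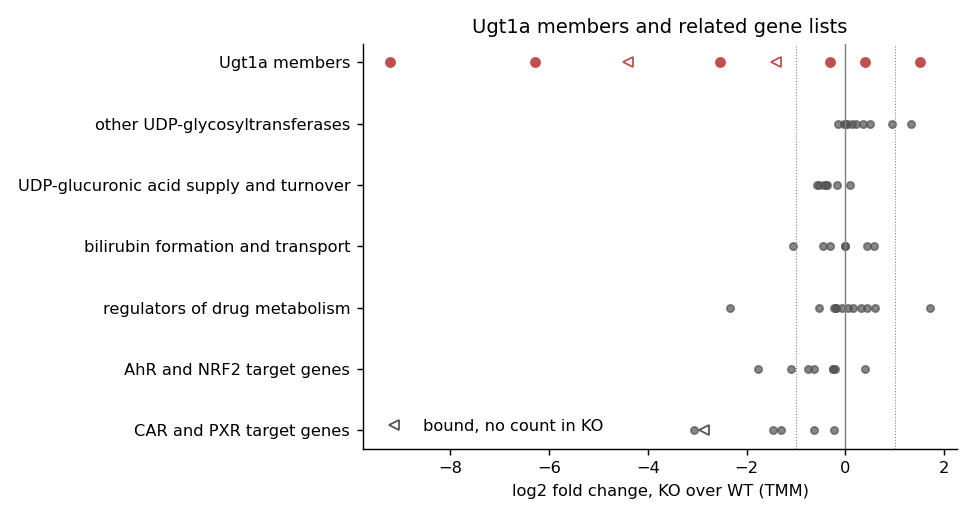
Log2 fold change, KO over WT with TMM (x axis), of the *Ugt1a* members (red) and of the tested genes of each related list (grey), 1 point per gene, with open triangles at the bound for genes without a KO read. The *Ugt1a* members span from *Ugt1a6b* at −9.23, a value that includes the prior count and rests on 1 KO read, to *Ugt1a1* at 1.51, while the 10 other UDP-glycosyltransferases lie between −0.16 and 1.33.

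The defining markers of hepatocytes were abundant in both libraries. *Alb* had 339876 counts in KO and 536544 in WT, and none of the 6 hepatocyte markers was past a 2-fold change with TMM, with a median of 0.03. The summed level of these markers was 50246 CPM in KO and 49814 in WT with TMM. Markers of other cells were lower in level. The 6 stellate cell markers summed to 59.4 and 90.2 CPM, with 2 past a 2-fold decrease, and the 6 macrophage markers to 126 and 165, with 2 past a 2-fold decrease. The 6 endothelial markers summed to 64.9 and 80.1, with 1 past a decrease, and the cholangiocyte markers to 164 and 125, with 2 of 5 tested past an increase. Of the cholangiocyte counts most were *Spp1*, with 1638 in KO and 1875 in WT (0.40). *Krt19* with 26 and 7 counts and *Krt7* with 15 and 6 were higher in KO, *Epcam* had 11 and 15 counts (0.14), *Sox9* had 69 and 129 (−0.31), and *Cftr* had 2 and 0. Of all genes tested, 9.46% were past a 2-fold increase and 9.94% past a 2-fold decrease with TMM. With total counts, 1 hepatocyte, 2 macrophage, 4 stellate cell and 3 endothelial markers were past a 2-fold decrease, against 26.6% of all genes tested. The 2 cholangiocyte markers stayed past a 2-fold increase, against 4.60%. The part of these cell types in the *Ugt1a* values was not tested.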

How the data were processed

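The authors deposited read counts per gene (whole numbers, not normalized) and the FPKM they computed from them, 1 column of each per library. Per the labels, the submitters' processing notes name HISAT2 2.0.4, StringTie and edgeR, and the human build hg38, although the listed genes are mouse genes whose members' coordinates match GRCm38. How reads of shared exons were divided is not given in the sources used here. Libraries held 13163348 to 13247497 counts, which sets the counting intervals.

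Counts were scaled with edgeR 4.0.16 (TMM) in R 4.3.3. Log2 fold changes used a prior count of 0.5, over genes with at least 10 counts in both libraries together, and a gene was called past a 2-fold change. With 1 library per genotype no test was made. Python 3.11.15, pandas 2.3.3, numpy 2.4.6, scipy 1.17.1 and matplotlib 3.10.9 were used, and the steps were tested on simulated data. Transcripts and exons came from GENCODE M21, with the transcript of the longest coding sequence per gene, promoters and the miRNA from RefSeq. Of the 8 members, 7 matched a promoter.

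Named genes are the 8 members, the genes within 300 kb, and up to 4 genes per list by size of change with at least 100 counts, plus genes with a stated role in the lists, chosen after their values were seen. The members and lists were chosen with earlier results of these data known. Alternatives were total counts, DESeq2 1.42.0 size factors, the upper quartile, total counts without mitochondrial genes, a prior count of 5, FPKM plus 0.1, minimums of 1 and 50 counts, and other makeups of the locus sum. Sums by type of first exon and counts per kb were chosen after seeing the data. A regulator in the lists and a searched motif are not reported here.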

Additional observations from a re-analysis of the deposited data

How the results depend on the processing

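No paired analysis was possible because the labels give only 1 library per genotype, which also leaves no replicate to drop. The locus sum stood at −0.38 on the log2 scale and kept its sign under every scaling, at −0.98 with total counts, −0.64 with FPKM and −0.47 with total counts without the mitochondrial genes. It was −0.15 without *Ugt1a6a*, −0.18 without *Ugt1a5* and −2.04 without *Ugt1a1*, and it changed sign to 0.064 without *Ugt1a6b*. The sum of bilirubin type moved from 0.69 to 0.089 with total counts and 0.083 with FPKM, and that of phenol type from −1.74 to −2.34 and −1.89. Members past a 2-fold increase numbered 1 with TMM and 0 with total counts or FPKM, which are also scaled by total counts. The number was 1 with DESeq2 size factors, the upper quartile and total counts without the mitochondrial genes. It was also 1 with a prior count of 5 and with minimums of 1 and 50 counts. Over all genes, 1283 were higher and 1348 lower with TMM, 624 and 3605 with total counts, 405 and 2934 with FPKM, 2269 and 2763 with a minimum of 1 count, and 656 and 730 with a minimum of 50 counts, since the genes tested change with the minimum. The share of *Ugt1a1* was 74.6% of the KO and 20.1% of the WT locus by counts, and 77.7% and 26.7% by FPKM. By FPKM the WT share of *Ugt1a6a* was 9.35% (18.7% by counts), of *Ugt1a6b* 19.1% (26.7%), of *Ugt1a5* 18.0% (13.4%) and of *Ugt1a9* 23.0% (17.1%). Of 63 alternative values of single members, 55 stayed within the counting interval, 8 did not, and none past a 2-fold change turned its direction. This count says little for *Ugt1a10* and *Ugt1a2*, whose intervals have no lower limit, and for *Ugt1a6b*, with −15.0 to −7.23. A prior count of 5 moved *Ugt1a10* from −4.39 to −1.58 and *Ugt1a2* from −7.31 to −4.07, still within these intervals. Members without a KO count could not turn their direction. *Ugt1a8* had no count, so adding it changed nothing. The cause of these shifts, other than the scaling or the makeup itself, was not tested. Depth limits *Ugt1a10*, *Ugt1a2*, *Ugt1a5* and *Ugt1a6b*, which had 0, 0, 5 and 1 counts in the KO library.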
